A study of Mus musculus with 98 samples.

Results

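*Aire*, *Fezf2*, *Cd80*, *Cd86*, *Hipk2* and *Prdm1* were followed across sorted thymic stroma of newborn and 4-week-old mice and across the single-cell subtypes of the newborn thymus. The 6 genes were taken by name, as regulators of self-antigen expression and as costimulation genes of medullary epithelium. They were 6 of the 39179 gene identifiers in the bulk count table, and all 6 were also among the 20760 genes of the newborn single-cell table.

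AIRE is a transcriptional regulator that lets mature medullary thymic epithelial cells (mTEC) express genes otherwise restricted to peripheral tissues, and FEZF2 is a zinc finger transcription factor that drives a further set of such genes. Developing thymocytes that bind these self-antigens strongly are deleted or diverted to the regulatory T cell fate. CD80 and CD86 are the ligands of CD28 and CTLA-4 that supply costimulation during this encounter. HIPK2 is a nuclear serine/threonine kinase described as a partner of AIRE. PRDM1 (BLIMP-1) is a transcriptional repressor that acts in the terminal differentiation of lymphocytes and epithelia.

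The study profiled thymic stroma of C57BL/6 mice at postnatal day 0 (P0) and 4 weeks by ultra-low-input bulk RNA-seq of live CD45- sorted populations, and WT and Tbx1+/-Crkl+/- newborns by droplet single-cell RNA-seq. The bulk groups, each of 6 libraries from WT mice, were cortical epithelium (cTEC), mTEC, CD31+ cells, Ly51+gp38- cells, gp38+CD26+ cells and gp38+CD26- cells at both ages, together with mTEChi and mTEClo at 4 weeks. The 6 single-cell libraries were 3 of WT and 3 of Tbx1+/-Crkl+/- newborns, the latter from Tbx1 lacZ/+ males crossed with females carrying a germline *Crkl* null allele, so that every cell of these mice carried both alleles. Newborn cells were live, Ter119-, CD45- and pre-fixed before capture. Antibodies to CD80 and MHC class II were in the sorting panel and the gate that separated mTEChi from mTEClo was not given in the sources used here, so *Cd80* and the MHC class II genes are only described between these populations. The labels did not say that replicates were separate animals, and p-values measure the spread between these libraries.

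Counts assigned to genes ranged from 5785352 to 14454727 in the 36 epithelial libraries and from 6793831 to 15852166 in 47 of the 48 nonepithelial libraries. The remaining library, gp38+CD26+ at 4 weeks replicate 2, held 25702 counts and went against its label, with 627 reads of 3 cTEC markers (24395 CPM, against 0.546 to 149.5 in the other 5 libraries of its group) and 47 reads of 3 fibroblast markers (1829 CPM, against 40311 to 47072). It was left out of the fits, the levels and the marker sums. The mTEC library at 4 weeks labelled replicate 3 had the fewest counts of the epithelial libraries and 12758 detected genes, against 16323 to 18710 in the other 5, and it had no read of *Cd80*, *Cd86* or *Prdm1*. Levels and age changes of *Fezf2*, *Cd80* and *Cd86* in mTEC are also given without it, as are the contrasts of the 4 medullary genes with cTEC at 4 weeks. Other results, among them the list counts with age, include it. In the other libraries these marker sums were highest in the populations of their label. The sum of 3 cTEC markers was 10405 to 30973 CPM in cTEC and 197 to 1644 in the medullary groups. The sum of 3 fibroblast markers was 19896 CPM or more in both gp38+ populations, and that of 3 endothelial markers 1916 CPM or more in CD31+ cells. Markers of other cells were also read. The cTEC sum was 331 to 1924 CPM in Ly51+gp38- cells at 4 weeks, and *Ptprc* (CD45) was 60.9 to 241 CPM in cTEC at 4 weeks. Titles of the bulk libraries carried the prefix DFCK or TXCK, 3 libraries of each in every group, and what the prefixes stand for was not given in the sources used here. The 6 single-cell libraries held 21451 cells and 4978011 to 31418527 unique molecular identifiers (UMIs), and 44 of the 21407 distinct cell barcodes were found in more than 1 library. As the CPM unit used here (counts per 1e+06 counts) scales each library to its own total, fewer cells of a type and less RNA per cell cannot be told apart in the bulk populations.

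On GRCm38, *Aire* (ENSMUSG00000000731) lies on the minus strand at chr10:78030022-78043610 and *Fezf2* (ENSMUSG00000021743) on the minus strand at chr14:12342094-12348189. *Cd80* (ENSMUSG00000075122, plus strand, chr16:38455561-38496335) and *Cd86* (ENSMUSG00000022901, minus strand, chr16:36603869-36666081) share a chromosome. *Hipk2* (ENSMUSG00000061436) lies on the minus strand at chr6:38694390-38876165 and *Prdm1* (ENSMUSG00000038151) on the minus strand at chr10:44437177-44528501. The sequences upstream of *Aire*, *Fezf2* and *Cd80* are shown as those of genes highest in medullary epithelium. Of the 6 genes 5 had an entry, and *Cd86* had none. They are RefSeq sequences on GRCm38.p6, read 5′ to 3′ on the strand of the gene. The *Aire* sequence is chr10:78043611-78043860, before the gene, with capitals at a TATA box (TATAAA) 29 bases before the start. The *Fezf2* sequence is chr14:12345960-12346115, inside the gene body as the longer annotated transcripts begin further upstream, with capitals at a match of the NF-κB (kappaB) consensus, and 94 exon bases next to the start are left out of it. The *Cd80* sequence is chr16:38458683-38458932, intronic to the annotated gene body and upstream of the RefSeq start.
Aire: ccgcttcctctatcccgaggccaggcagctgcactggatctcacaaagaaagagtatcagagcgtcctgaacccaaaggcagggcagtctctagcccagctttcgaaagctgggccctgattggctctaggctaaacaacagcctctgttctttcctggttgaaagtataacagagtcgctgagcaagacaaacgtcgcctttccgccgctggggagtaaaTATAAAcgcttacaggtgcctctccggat
Fezf2: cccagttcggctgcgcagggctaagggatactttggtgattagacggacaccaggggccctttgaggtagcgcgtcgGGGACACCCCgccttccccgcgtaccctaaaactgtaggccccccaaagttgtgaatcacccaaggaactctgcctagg
Cd80: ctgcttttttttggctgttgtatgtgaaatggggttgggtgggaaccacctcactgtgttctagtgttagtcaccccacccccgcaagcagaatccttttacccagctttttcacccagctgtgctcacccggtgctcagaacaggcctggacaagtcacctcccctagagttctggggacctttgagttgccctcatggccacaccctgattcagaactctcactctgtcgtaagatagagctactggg
4 motifs were searched on both strands of the 250 bases before each start: TATAAA, the GC box GGGCGG, the E box CACGTG and the kappaB consensus, whose match in *Fezf2* was found on both strands at the same bases. A GC box lies 85 bases before the *Fezf2* start, among the exon bases not printed. TATAAA was found in 12.4% of 32851 RefSeq promoters and the kappaB consensus in 7.25%, and GGGCGG and CACGTG in 32.7% and 6.02%. None of the 4 was found in the *Cd80* sequence. A match is a description of these letters only.

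Across the 14 bulk populations, *Aire*, *Fezf2*, *Cd80* and *Cd86* were highest in medullary epithelium, with *Cd86* at 0 in 3 of the 6 mTEClo libraries, and at or near 0 elsewhere, whereas *Hipk2* was spread over all epithelium and *Prdm1* was low throughout. Per kilobase of exon, *Fezf2* was the most abundant of the 6 in mTEChi at 205 CPM per kb, followed by *Aire* at 58.4, *Cd80* at 16.1, *Cd86* at 15.4 and *Hipk2* at 2.43 CPM per kb. *Aire* was highest in mTEC at P0 (245 ± 45.9 CPM, SD, n = 6), followed by mTEChi (223 ± 33.5) and mTEC at 4 weeks (186 ± 35.4), whose ranges overlapped. It then fell without overlap to mTEClo (45.9 ± 32.7 CPM). *Aire* reads outside the medulla came from single libraries: 38 reads in 1 cTEC library at 4 weeks, 30 in 1 cTEC library at P0 and 43 in 1 gp38+CD26+ library at 4 weeks, beside 1 read in gp38+CD26+ cells at P0.

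*Fezf2* was ordered differently from *Aire* by its highest population, mTEChi (625 ± 81.8 CPM), then mTEC at P0 (435 ± 100.7) and at 4 weeks (411 ± 175.1) and mTEClo (235 ± 25.9), of which neighbours overlapped. The next population, cTEC at 4 weeks, lay below all medullary libraries at 0.0773 to 9.32 CPM. *Cd80* ran from 59.5 ± 8.89 CPM in mTEChi to 51.4 ± 6.44 in mTEC at P0, 43.5 ± 25.3 in mTEC at 4 weeks and 11.6 ± 8.96 in mTEClo. *Cd86* followed as 56.4 ± 8.60 CPM in mTEChi, 42.3 ± 25.95 in mTEC at 4 weeks, 25.5 ± 7.96 in mTEC at P0 and 8.17 ± 11.6 in mTEClo. Without mTEC replicate 3 at 4 weeks, which had no read of either ligand, *Cd80* was 52.3 ± 15.2 CPM at that age and *Cd86* 50.7 ± 17.5. The ranges of the 2 ages of mTEC overlapped for both ligands, with and without that library.

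*Hipk2* was highest in cortical epithelium, at 47.9 ± 6.97 CPM at P0 and 39.5 ± 6.40 at 4 weeks, followed by mTEC at P0 (37.2 ± 6.51) and mTEClo (29.5 ± 12.7), and it reached mTEChi last among epithelial populations (21.5 ± 6.36 CPM). Nonepithelial libraries spanned 0 to 24.1 CPM, and no neighbours in its order were separated. *Prdm1* was highest in CD31+ cells at P0 (15.6 ± 10.2 CPM), a population of endothelial cells, ahead of mTEC at P0 (7.65 ± 5.45) and Ly51+gp38- cells at 4 weeks (7.30 ± 4.86). In the plot of bulk levels by population *Aire* and *Fezf2* step up at all medullary groups, *Cd80* and *Cd86* overlap other groups in mTEClo, and *Hipk2* and *Prdm1* show no such step.

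**Figure D1:**
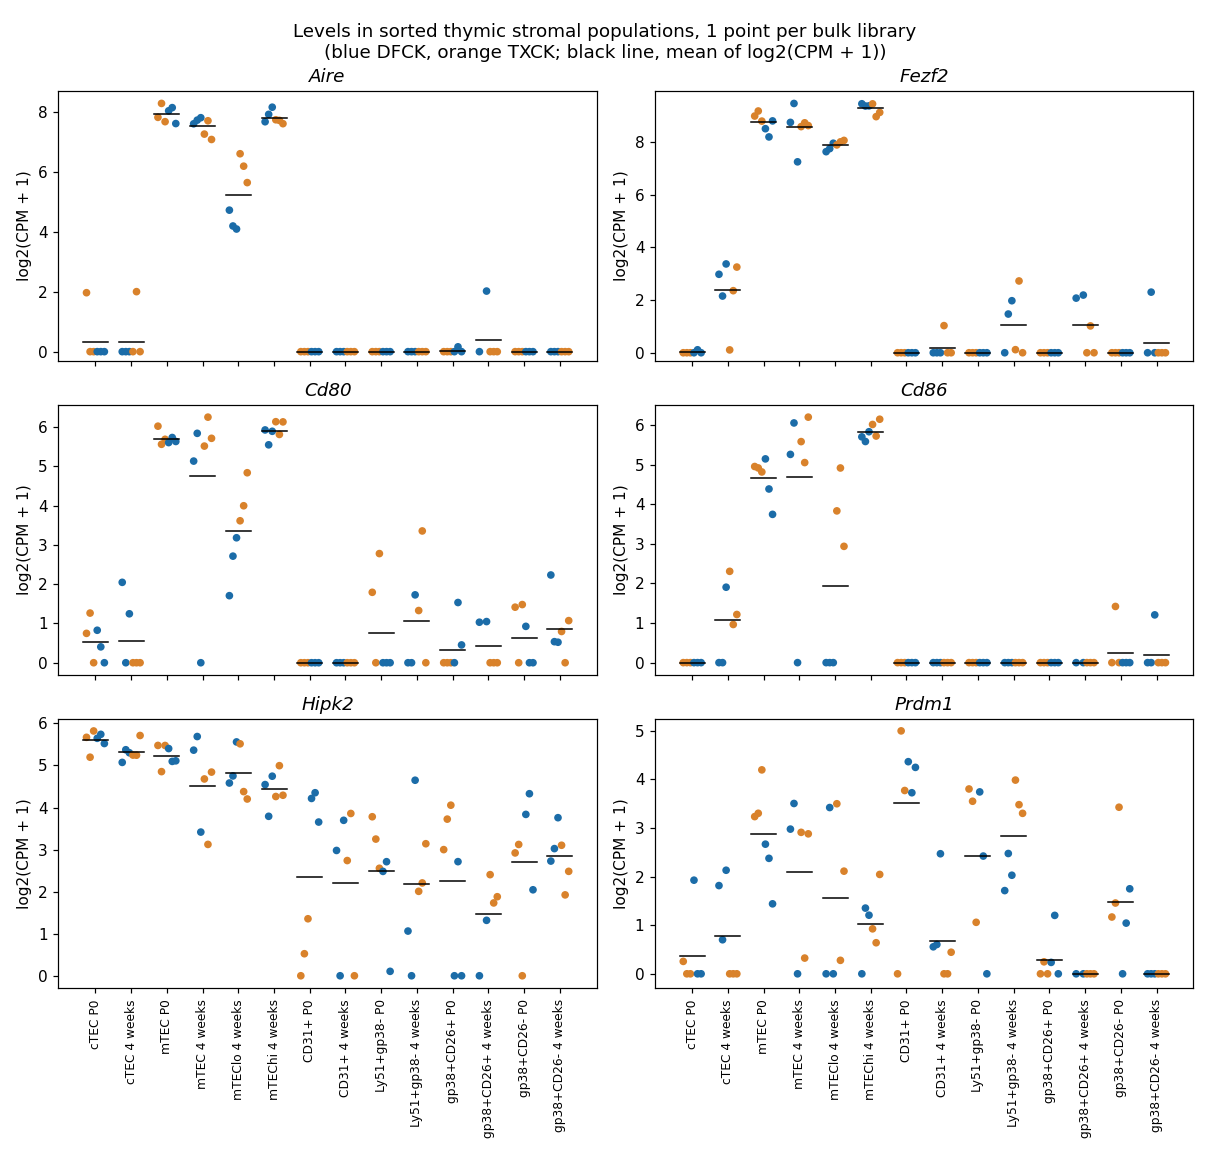
Levels of the 6 genes in each bulk library, as log2(CPM + 1) on the vertical axis, in the 14 sorted populations on the horizontal axis (blue, DFCK libraries; orange, TXCK libraries; black line, mean of log2(CPM + 1) over 6 libraries, or over 5 in gp38+CD26+ at 4 weeks). *Aire* and *Fezf2* stand high in the 4 medullary groups and *Cd80* and *Cd86* in mTEC and mTEChi, with *Cd86* at 0 in 3 of the 6 mTEClo libraries, whereas *Hipk2* is present in all epithelial groups.

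The comparison of mTEChi with mTEClo asked how the 6 genes differ between these sorted medullary populations. In mTEClo 5 post-Aire mTEC markers summed to a median of 431 CPM, against 270 in mTEChi, with overlapping ranges. mTEClo is therefore not read as less mature cells only. *Aire* and *Fezf2* were higher in mTEChi and both passed the test, *Cd80* was higher as a description, *Cd86* was higher in every library but missed the threshold, and *Hipk2* and *Prdm1* did not pass. *Aire* ranged from 193 to 284 CPM in mTEChi with a median of 210.4, against 16.03 to 96.1 with a median of 37.1 in mTEClo. The 2 populations did not overlap. The pooled reads gave a 4.82-fold difference and edgeR's quasi-likelihood test a log2 fold change of 2.55 ± 0.70 (SE; adjusted p = 0.00789). By DESeq2 *Aire* missed the threshold (adjusted p = 0.0510).

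*Fezf2* had lowest, median and highest values of 495, 656 and 695 CPM in mTEChi against 196, 240.2 and 265 in mTEClo. No library of one population reached the other. The difference was 2.68-fold, with a log2 fold change of 1.67 ± 0.37 and an adjusted p of 0.00134 in edgeR. Among all 18847 genes tested, 23.7% were called between these populations and 17.9% were called as higher in mTEChi, against which the 2 called transcription regulators are to be read.

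For the ligands, *Cd80* was 45.7 to 69.2 CPM with a median of 59.0 in mTEChi and 2.26 to 27.5 with a median of 9.64 in mTEClo, without overlap and 5.47-fold apart. *Cd86* was 46.9 to 69.7 CPM with a median of 53.8 in mTEChi and 0 to 29.1 with a median of 3.32 in mTEClo, again without overlap. Its 7.03-fold difference did not pass (log2 fold change 3.05 ± 1.16, edgeR adjusted p = 0.0551), whereas by DESeq2 it did (adjusted p = 0.0494) and without mTEClo replicate 5 it did in edgeR (0.0210). Groups that did not overlap were found for 14.5% of all genes, and for 9.91% with mTEChi the higher.

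*Hipk2* ranged from 12.9 to 30.9 CPM in mTEChi and from 17.4 to 46.2 in mTEClo, and the 2 populations overlapped (log2 fold change -0.19 ± 0.32, edgeR adjusted p = 0.742). *Prdm1* was 0 to 3.13 CPM in mTEChi and 0 to 10.3 in mTEClo, where 2 of the 6 libraries had no read (-1.38 ± 1.5, edgeR adjusted p = 0.592). At 96 reads in mTEChi and 263 in mTEClo, a difference in *Prdm1* smaller than its error was not detectable at this depth.

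Within mTEClo, the libraries of the 2 title prefixes stood apart for *Aire* and *Cd86*. The contrasts of prefixes were chosen after the data were seen, so their p-values are not those of planned tests. The 3 DFCK libraries of mTEClo had 25.4, 17.3 and 16.03 CPM of *Aire* and the 3 TXCK libraries 96.1, 71.8 and 48.8 CPM. The sets did not overlap, and *Aire* passed the test between them (log2 fold change of DFCK against TXCK -1.87 ± 0.28, edgeR adjusted p = 0.00706). *Cd86* had no read in any DFCK library of mTEClo and 13.2, 29.1 and 6.65 CPM in the TXCK libraries (edgeR adjusted p = 0.00184). Between these sets of mTEClo libraries, 1.37% of the 18424 genes tested were called and 1.06% were called as lower in DFCK, and 12.6% did not overlap.

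*Cd80* was 2.26, 5.55 and 8.06 CPM in DFCK and 11.2, 14.9 and 27.5 in TXCK libraries of mTEClo, which did not overlap but did not pass (-1.76 ± 0.47, edgeR adjusted p = 0.0977). *Fezf2* was 196, 213 and 246 CPM in DFCK and 235, 255 and 265 in TXCK libraries (-0.19 ± 0.14, edgeR adjusted p = 0.550). In mTEChi, edgeR called 0 genes between the prefixes, with 272 at an unadjusted p under 0.05.

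The difference between mTEChi and mTEClo was therefore also taken within each prefix, again after the data were seen. For *Cd86* it was at least 534-fold in DFCK libraries, against a floor of 3 reads over the mTEClo libraries, and 3.69-fold in TXCK libraries, and the difference between them passed the test of the interaction (edgeR adjusted p = 0.00832), which called 0.353% of genes. For *Aire* it was 12.6-fold in DFCK and 2.70-fold in TXCK libraries (interaction 2.07 ± 0.38 on the log2 scale, edgeR adjusted p = 0.0505). For *Fezf2* it was 3.04-fold and 2.35-fold (0.36 ± 0.19, edgeR adjusted p = 0.522), and for *Cd80*, as a description, 9.83-fold and 3.88-fold. Fitted on the 3 TXCK libraries of each group alone, *Aire* and *Fezf2* no longer passed between mTEChi and mTEClo (edgeR adjusted p = 0.228 and 0.135) while *Cd86* did (0.0355).

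Marker genes moved with the prefix in mTEClo. The summed level of 5 genes of immature mTEC (*Ccl21a*, *Krt14*, *Krt5*, *Itga6*, *Pdpn*) was 23084 to 31019 CPM in DFCK and 9781 to 13590 in TXCK libraries. The summed level of 6 cornified genes was 48.9 to 345 CPM in DFCK and 537 to 973 in TXCK libraries. Dendritic cell markers summed to 8.49 to 82.2 CPM in DFCK and 0 to 20.2 in TXCK libraries of mTEClo, with *Itgax*, *Flt3*, *Xcr1* and *Siglech* at 0 in all 6, and B cell markers to 4.19 to 20.7 and 23.6 to 42.5 CPM, with *Ms4a1* at 0. Between the populations, the macrophage sum was 114 to 199.9 CPM in mTEChi and 0 to 36.96 in mTEClo. The B cell sum was 48.98 to 95.7 and 4.19 to 42.5 CPM, and neither sum overlapped. The dendritic sum of mTEChi, 34.1 to 105.4 CPM, overlapped that of mTEClo. Of the dendritic genes at 0 in mTEClo, *Flt3* was 3.04 to 20.1 CPM in mTEChi and *Itgax* 0 to 16.4 CPM. *Ptprc* (CD45) was 3.94 to 11.6 CPM with a median of 8.50 in mTEChi, in populations sorted as CD45-. In mTEClo it was 0 to 17.5 CPM with a median of 0, so the ranges overlapped. The macrophage and B cell sums and *Flt3* were thus higher in mTEChi, as *Cd80* and *Cd86* were. *Ptprc* was higher there by its median, with overlapping ranges. The part of these in the results was not tested.

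**Figure D2:**
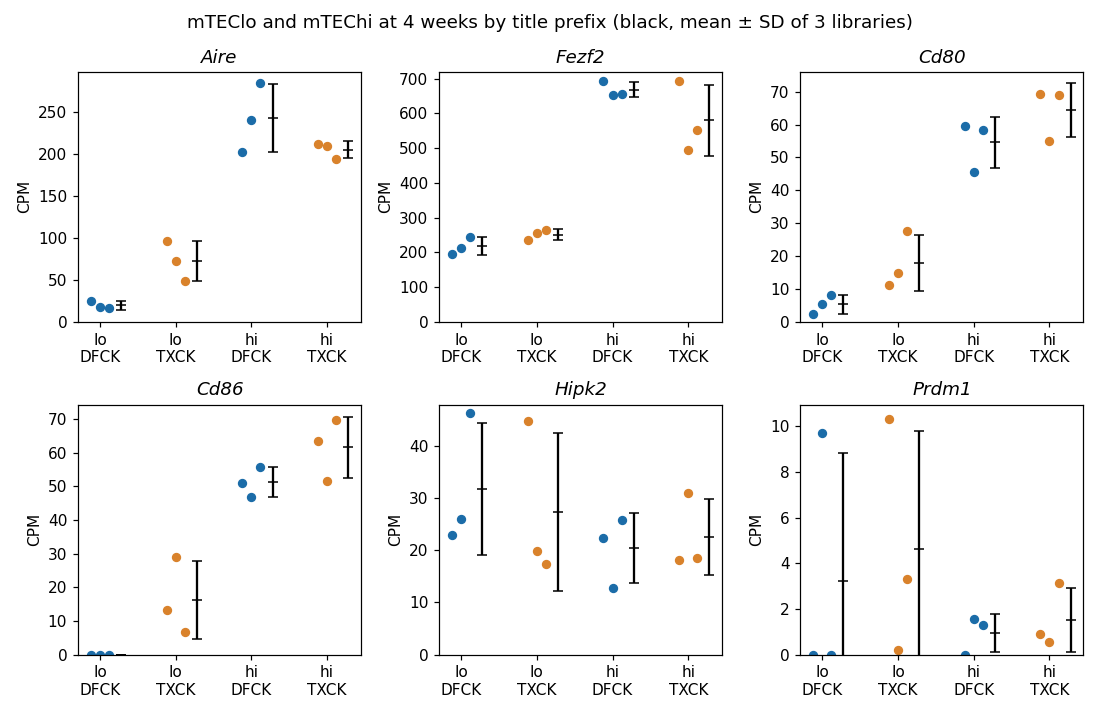
CPM of the 6 genes (vertical axes) in mTEClo and mTEChi libraries of the DFCK and TXCK prefixes, with points for libraries and mean ± SD of 3, bars being cut off at 0. *Aire*, *Cd80* and *Cd86* of mTEClo are separated by prefix, with *Cd86* at 0 in the 3 DFCK libraries, whereas the mTEChi libraries of the 2 prefixes overlap.

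Among the other genes of the pathway, counts of list members are to be read against the 17.9% of all genes called higher and the 5.8% called lower in mTEChi. Of 13 costimulatory and coinhibitory genes, which are ligands apart from the receptor genes *Cd40* and *Tnfrsf14*, 8 were called higher in mTEChi and 0 lower, with a median log2 fold change of 0.99 beside 0.25 over all genes. *Tnfsf9* (4-1BB ligand) was 160 ± 20.3 CPM in mTEChi and 22.1 ± 18.8 in mTEClo (log2 fold change 3.13 ± 0.80), and *Tnfsf4* (OX40 ligand) was 0 to 5.88 CPM in mTEChi with no read in mTEClo. Of 11 TNF receptor and NF-κB genes, which carry the RANK, CD40 and lymphotoxin signals to mTEC and again include *Cd40*, 4 were called higher and 1 lower. *Rel*, an NF-κB subunit, was 26.1 ± 9.02 against 2.76 ± 5.68 CPM (3.50 ± 0.94), *Cd40* was 362 ± 46.9 against 136.7 ± 23.1 CPM (1.67 ± 0.15) and *Ltbr*, the lymphotoxin β receptor, was 13.4 ± 5.91 against 44.1 ± 20.6 CPM (-1.47 ± 0.53).

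Of 19 partners and regulators of AIRE, 2 were called higher in mTEChi and 1 lower, a share no larger than that of all genes (23.7% called in either direction), and the list median of -0.21 lay below that of all genes. The deacetylase gene *Sirt1* was 81.7 ± 11.6 CPM in mTEChi and 19.7 ± 11.5 in mTEClo (2.32 ± 0.59), and *Irf8* was 331 ± 16.9 and 115.2 ± 27.7 CPM (1.78 ± 0.13). *Xrcc5*, which encodes the Ku80 subunit of DNA-dependent protein kinase, was 17.4 ± 4.60 and 60.8 ± 39.7 CPM (-1.55 ± 0.33). Of the antigens, 2 of 3 tested Aire-dependent genes, 5 of 7 Fezf2-dependent genes and 2 of 3 known not to need AIRE were called higher in mTEChi. *Ins2* (insulin) was 4.67 ± 1.84 against 0.277 ± 0.419 CPM, *Fabp9* was 55.2 ± 15.4 against 7.63 ± 5.60 CPM and *Csn2* (β-casein), of the last list, was 1644 ± 275 against 203 ± 116 CPM. Of the 5 immature mTEC genes, 5 were called lower in mTEChi, led by *Ccl21a* at 577 ± 71.4 against 16464 ± 7545 CPM. The MHC class II genes, described only, included *H2-Aa* at 13522 ± 915 against 5398 ± 790.0 CPM and *Cd74* at 79938 ± 4774 against 39250.3 ± 3258 CPM. Of the 6 cornified genes edgeR called 0.

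**Figure D3:**
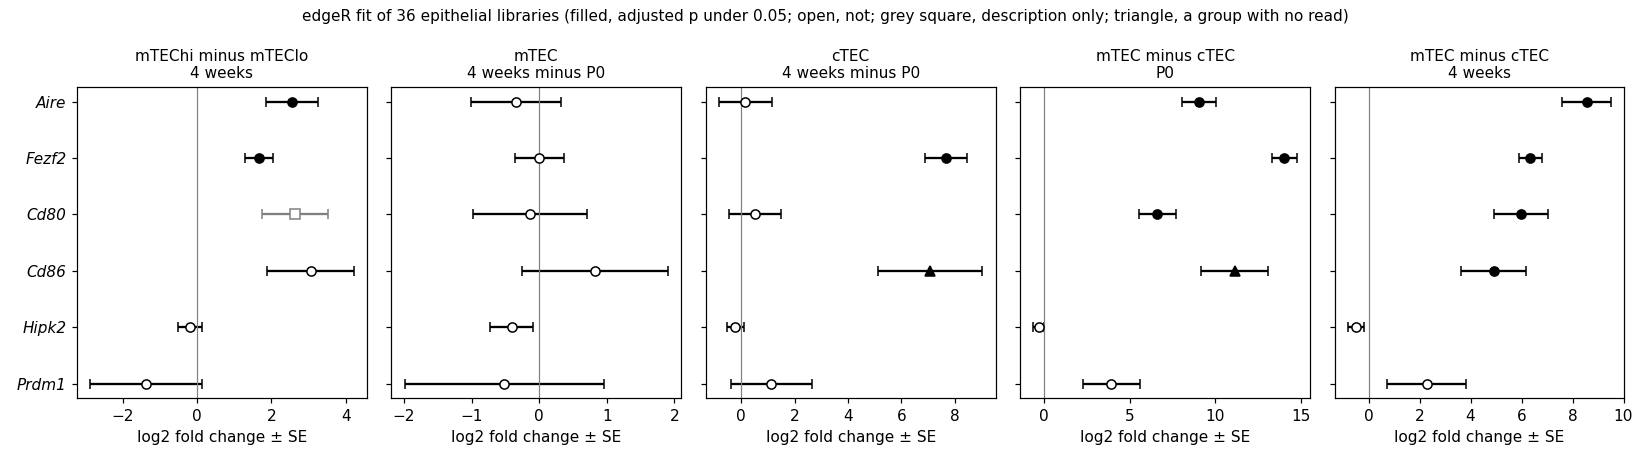
Log2 fold changes of the 6 genes with 1 SE (horizontal axis) in 5 comparisons of bulk epithelial populations, each panel with its own scale, with filled points where edgeR's adjusted p was under 0.05, open points where it was not, and a grey square for *Cd80* between mTEChi and mTEClo, a description only. Triangles are fitted values of genes with no read in a group, such as *Cd86* in cTEC at P0, which are no bound on the fold. Points are filled for *Aire* and *Fezf2* between mTEChi and mTEClo, for none of the 6 genes with age in mTEC, for *Fezf2* and *Cd86* with age in cTEC, and for *Aire*, *Fezf2*, *Cd80* and *Cd86* between mTEC and cTEC at both ages.

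The comparison of 4 weeks with P0 asked whether the genes change with postnatal age in mTEC. None of the 6 passed the test in mTEC, where edgeR called 6.55% of genes, and none separated the ages, which 6.34% of genes did. *Aire* was 133.96 to 222 CPM at 4 weeks with a median of 200.01, and 194 to 309.7 CPM at P0 with a median of 242 (log2 fold change -0.34 ± 0.66, edgeR adjusted p = 0.890). *Fezf2* was 150.2 to 700.1 CPM at 4 weeks with a median of 406, and 290.0 to 574 at P0 with a median of 441 (-0.00 ± 0.36, edgeR adjusted p = 1.0). Without mTEC replicate 3, which held the lowest *Fezf2* value, the 4-week mean was 464 ± 133.6 CPM and the log2 fold change 0.19.

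*Cd80* was 0 to 75.1 CPM at 4 weeks and 46.1 to 63.9 at P0 (-0.13 ± 0.84, edgeR adjusted p = 0.972). *Cd86* was 0 to 72.3 CPM at 4 weeks and 12.4 to 34.3 at P0 (0.83 ± 1.08, edgeR adjusted p = 0.811). Without replicate 3 the 4-week means were 52.3 ± 15.2 CPM for *Cd80* and 50.7 ± 17.5 for *Cd86*, and the log2 fold changes were 0.13 and 1.09. The lowest *Cd86* value at 4 weeks was then 32.1 CPM, below the highest at P0, so the ages still overlapped.

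*Hipk2* was 7.72 to 50.6 CPM in mTEC at 4 weeks and 27.9 to 43.6 at P0 (-0.41 ± 0.32, edgeR adjusted p = 0.599). *Prdm1* was 0 to 10.4 CPM at 4 weeks and 1.71 to 17.3 at P0 (-0.52 ± 1.47, edgeR adjusted p = 0.934). With standard errors of 0.32 to 1.47 on the log2 scale, changes of the size seen here were not detectable in these libraries.

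Between the ages of mTEC, 3.72% of all genes were called higher at 4 weeks, beside which the list counts stand. Of 13 costimulatory and coinhibitory genes, 2 were called higher at 4 weeks, both ligands of PD-1: *Pdcd1lg2* (PD-L2) at 105 ± 29.4 against 43.2 ± 7.11 CPM and *Cd274* (PD-L1) at 103.1 ± 20.2 against 57.6 ± 12.7 CPM. Of 19 AIRE partners 1 was called, near the share of all genes: *Irf8* at 290.0 ± 32.3 against 210.2 ± 21.5 CPM. Of 7 Fezf2-dependent genes 3 were called higher at 4 weeks, among them *Fabp9* at 41.4 ± 3.69 against 0.604 ± 0.439 CPM and *Apoc3* at 12.8 ± 5.12 against 0.651 ± 0.371 CPM, while *Fezf2* itself did not pass. Of 5 MHC class II genes 3 were called higher, among them *H2-Ab1* and *H2-Aa* by 0.72 and 0.70 on the log2 scale. Of 5 immature mTEC genes 1 was called higher, *Ccl21a* at 4188 ± 1815 against 1377 ± 604 CPM. Of the TNF and NF-κB genes and of the Aire-dependent antigens, 0 of 11 and 0 of 3 were called. Of 6 cornified genes 2 were called higher, *Spink5* at 187.2 ± 144.8 against 10.8 ± 5.76 CPM and *Krt10* at 155.3 ± 126.6 against 11.9 ± 7.91 CPM.

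In cTEC, *Fezf2* and *Cd86* were higher at 4 weeks than at P0 and passed the test, at levels far below those of mTEC; with DFCK libraries only, *Cd86* did not pass (edgeR adjusted p = 0.340). *Fezf2* was 6.87, 3.44, 9.32, 0.0773, 4.11 and 8.51 CPM at 4 weeks (381 reads), and 1 read was found in the 6 libraries at P0. The ratio was 333, with a 95% exact counting interval of 59.4 to 13194 that covers counting error only, and the edgeR adjusted p was 6.21e-09. *Cd86* was 0, 0, 2.74, 3.94, 0.949 and 1.32 CPM at 4 weeks and had no read at P0, a difference of at least 31.8-fold against a floor of 3 reads over the group (edgeR adjusted p = 0.0142). Both genes overlapped between the ages, *Fezf2* by a single library and *Cd86* at 0, where 9.66% of all genes did not overlap. The share of all genes called was 14.1%, and 10.1% were called as higher at 4 weeks.

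Markers of other cells differed with age in the same cTEC libraries. *Ptprc* (CD45) was 60.9 to 241 CPM at 4 weeks and 0 to 6.20 at P0, thymocyte markers summed to 352 to 1602 CPM against 23.2 to 43.8, and fibroblast markers to 333 to 1758 CPM against 12.6 to 123. Dendritic cell markers summed to 2.28 to 9.61 CPM at 4 weeks, with *Itgax* and *Cd209a* at 0, and to 2.58 to 8.14 at P0. B cell markers summed to 10.52 to 15.1 CPM at 4 weeks and 0 to 1.37 at P0, with *Ms4a1* at 0 at both ages, and macrophage markers to 0.869 to 17.7 and 0.484 to 8.80 CPM. Among mTEC genes, *Ccl21a* was 2867 ± 1801 CPM in cTEC at 4 weeks and 220.3 ± 102 at P0, and the mTEC keratin *Krt14* was 391 ± 176 and 66.2 ± 39.9 CPM, both called higher. The part of these cells in the *Fezf2* and *Cd86* reads of cTEC was not tested. *Aire*, *Cd80*, *Hipk2* and *Prdm1* did not pass between the ages of cTEC.

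Among all genes in cTEC 4% were called lower at 4 weeks. Of the lists, 2 of 11 TNF and NF-κB genes were called lower at 4 weeks, *Nfkb2* at 98.6 ± 20.3 against 171.9 ± 24.4 CPM and *Relb* at 66.4 ± 11.3 against 115.2 ± 15.4 CPM. These are the subunits of the noncanonical NF-κB dimer. Of 7 Fezf2-dependent antigens 3 were called higher, at low levels such as *Resp18* at 2.26 ± 1.11 CPM with no read at P0. The change with age differed between mTEC and cTEC for *Fezf2* (interaction -7.67 ± 0.91 on the log2 scale, a fitted value that rests on the single P0 read, edgeR adjusted p = 8.63e-07), where 4.79% of genes were called. For *Cd86* the interaction did not pass (edgeR adjusted p = 0.127), nor did it for the other 4 genes.

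In the nonepithelial populations *Prdm1* was the gene of the 6 that passed between the ages. In gp38+CD26- cells it was 1.25, 1.74, 9.77, 0, 1.06 and 2.36 CPM at P0 and had no read in the 6 libraries at 4 weeks, against 212 reads at P0 (edgeR adjusted p = 0.00248; 13.9% of genes called, 5.36% as lower at 4 weeks). Markers of other cells moved with it in gp38+CD26- cells: *Ptprc* (CD45) was 0 to 9.996 CPM with a median of 8.73 at P0 and 0 to 3.72 with a median of 0 at 4 weeks. The median sums at P0 and 4 weeks were 30.6 and 1.87 CPM for 6 thymocyte markers, 40.03 and 6.32 for 3 TEC markers and 87.3 and 17.5 for 2 proliferation markers. Their part in the result was not tested. In CD31+ cells it was 0, 30.99, 12.7, 19.6, 12.2 and 18.01 CPM at P0 and 0.470, 0.519, 4.54, 0, 0 and 0.361 at 4 weeks, with 1 P0 library at 0 among the 4-week values, and it did not pass (-3.85 ± 1.47, edgeR adjusted p = 0.0892; 10.4% of genes called). In gp38+CD26+ cells, where 9.9% of genes were called, it had 15 reads at P0 and none at 4 weeks (edgeR adjusted p = 0.0841). In Ly51+gp38- cells it was 7.30 ± 4.86 CPM at 4 weeks and 6.92 ± 5.82 at P0 (edgeR adjusted p = 0.978). *Fezf2* had no read in any of the 4 populations at P0 and 13 to 116 reads per population at 4 weeks, which did not pass in any (edgeR adjusted p from 0.0536 to 0.218). *Aire* and *Cd86* were removed by the filter on low counts in these populations.

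The contrast of medulla with cortex placed the 4 medullary genes far above cortex at both ages. At P0, *Aire* was 517-fold higher in mTEC than in cTEC (log2 fold change 9.04 ± 0.99), *Cd80* 90.7-fold (6.61 ± 1.10), *Cd86* at least 541-fold and *Fezf2* 27860.5-fold by its single cTEC read (exact interval 5000.0 to 1.1e+06). All 4 passed and did not overlap, where 37.5% of genes were called, 29.2% were called as higher in mTEC, and 27.6% did not overlap (18.6% with mTEC the higher). At 4 weeks, *Aire* was 351-fold higher (8.55 ± 0.97), *Fezf2* 82.9-fold (6.35 ± 0.46), *Cd80* 68.4-fold (5.97 ± 1.06) and *Cd86* 31.2-fold (4.90 ± 1.27). All 4 passed, *Cd80* and *Cd86* not with DFCK libraries only or with the replicate number as a block (edgeR adjusted p = 0.0857 and 0.109 with the block), where 37.9% of genes were called and 26.4% were called as higher in mTEC, and *Aire* and *Fezf2* did not overlap (17.5% of genes, 9.42% with mTEC the higher), *Cd80* and *Cd86* being at 0 in mTEC replicate 3. Without that library the log2 fold changes were 8.56, 6.57, 6.26 and 5.21. *Hipk2* did not pass between medulla and cortex at P0 (-0.31 ± 0.32, edgeR adjusted p = 0.496) or at 4 weeks (-0.49 ± 0.32, edgeR adjusted p = 0.240). *Prdm1* was higher in mTEC at P0, with 546 reads against 31 in cTEC, and missed the threshold (3.92 ± 1.66, edgeR adjusted p = 0.0613). By DESeq2 it passed at P0 (adjusted p = 0.0209). At 4 weeks *Prdm1* did not pass (2.28 ± 1.54, edgeR adjusted p = 0.264). The populations were sorted as CD45-, and markers of other cells that express *Cd80* and *Cd86* differed in this contrast. *Ptprc* (CD45) was 0 to 15.5 CPM in mTEC and 0 to 6.20 in cTEC at P0, but 0 to 9.85 in mTEC and 60.9 to 241 in cTEC at 4 weeks. Macrophage markers summed to 114.8 to 171.7 CPM in mTEC and 0.484 to 8.80 in cTEC at P0, and to 94.3 to 173.9 and 0.869 to 17.7 CPM at 4 weeks. B cell markers summed to 32.4 to 66.9 and 0 to 1.37 CPM at P0, and to 27.0 to 108.7 and 10.52 to 15.1 at 4 weeks, and dendritic cell markers to 47.9 to 85.4 and 2.58 to 8.14 CPM at P0. Their part in the results was not tested. These comparisons share libraries with those of age.

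In the newborn single-cell data, the authors' annotation divided the cells into 29 subtypes, of which mature medullary TEC (MmTEC) held 518 cells and the cells labelled post-AIRE medullary TEC (PAmTEC) 11, 13 and 22 in the WT and 9, 55 and 22 in the Tbx1+/-Crkl+/- libraries. As the cells were grouped by their expression, levels between subtypes are a description. *Aire* was highest in MmTEC at 1846 ± 470 CPM (SD, n = 6 libraries), then proliferating TEC (PrTEC) at 316 ± 146.1 and PAmTEC at 135 ± 249 CPM. *Fezf2* had the same order at its top, 526 ± 165 CPM in MmTEC and 117 ± 74.2 in PrTEC. *Cd80* was 109 ± 13.9 CPM in MmTEC and 21.1 ± 11.9 in PrTEC.

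*Cd86* was read 41 times in MmTEC, 38 of them in WT libraries, and its mean of 10.9 ± 16.1 CPM stood on 3 of the 6 libraries. Without WT replicate 3 its mean was 4.88 CPM. *Hipk2* was highest in perinatal cTEC (PcTEC) at 81 ± 28.1 CPM, with MmTEC at 62.6 ± 23.2 and PrTEC at 56.8 ± 21.5, and its neighbours were within 1 SD. *Prdm1* was highest in the vascular smooth muscle subtype at 24.8 ± 11.7 CPM, with 11.2 ± 7.12 in the endothelial subtype labelled EnC, 4.15 ± 5.61 in the one labelled EnVL, 0 in the one labelled EnA and 5.53 ± 6.64 in MmTEC. The plot of levels by subtype shows the 3 genes *Aire*, *Fezf2* and *Cd80* at their peak in the same cells.

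**Figure D4:**
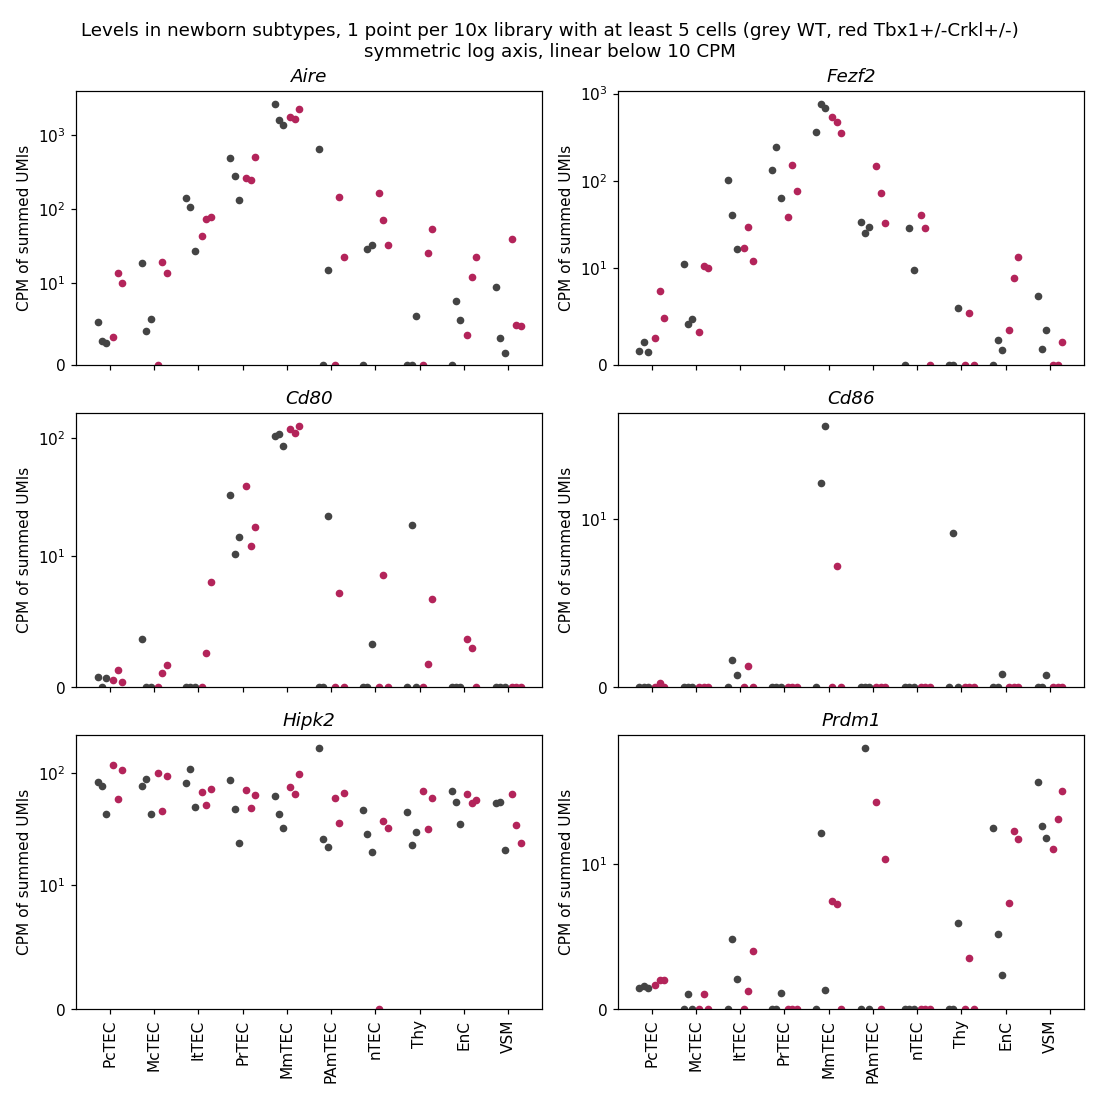
Summed CPM of the 6 genes by newborn subtype, on an axis that is linear below 10 CPM and logarithmic above, with points for 10x libraries that held at least 5 cells of the subtype. *Aire*, *Fezf2* and *Cd80* are highest in MmTEC in all libraries, and *Hipk2* is spread over the subtypes.

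At least 1 *Aire* UMI was found in 83.2% of MmTEC (exact 95% interval 79.7 to 86.3), against 22.2% of PrTEC, 7.58% of PAmTEC (3.69 to 13.49), 2.18% of PcTEC, 1.81% of the endothelial subtype labelled EnC and 3.74% of thymocytes. Median depth was 3170 UMIs in MmTEC, 3410.0 in PrTEC, 2773 in PAmTEC, 3310.5 in PcTEC, 2439 in EnC and 2071 in thymocytes. The last 3 subtypes are not known for *Aire* expression and serve as the background share, whose source was not tested. With each cell thinned to 2000 UMIs, the *Aire* share was 7.14% of PAmTEC (2.92 to 14.2), 2.48% of thymocytes (1.004 to 5.05), 1.39% of EnC and 1.19% of PcTEC, and the intervals of PAmTEC and thymocytes overlapped with and without thinning. *Fezf2* was found in 55.2% of MmTEC, 17.0% of PrTEC, 9.85% of PAmTEC and 1.31% of PcTEC, and *Cd80* in 27.0% of MmTEC, 4.93% of PrTEC, 3.03% of PAmTEC and 0.290% of PcTEC. At the same depth the shares in MmTEC were 77.2%, 46.9% and 17.6% for *Aire*, *Fezf2* and *Cd80* (426 of 518 cells were deep enough, 233 of 263 WT and 193 of 255 Tbx1+/-Crkl+/- cells).

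*Cd86* was found in 4.05% of MmTEC and in none of the PAmTEC cells (0%), which allows a share of cells with a UMI of up to 2.27% and sets no limit on cells expressing the gene. *Hipk2* was found in 18.5% of MmTEC, 11.4% of PAmTEC, 24.0% of PcTEC and 12.7% of EnC, so its share in MmTEC did not stand apart. *Prdm1* was found in 1.93% of MmTEC, 2.27% of PAmTEC, 0.684% of PcTEC and 2.41% of EnC.

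MmTEC were above the cells labelled PAmTEC in *Aire*, *Fezf2* and *Cd80* in 6 of 6 libraries, a contrast that the clustering could have used. *Aire* in MmTEC of WT replicates 1 to 3 was 2596, 1568 and 1338 CPM and in Tbx1+/-Crkl+/- replicates 1 to 3 was 1734, 1617 and 2226. In PAmTEC it was 632, 0 and 14.7 CPM in WT and 0, 144.2 and 22.0 in Tbx1+/-Crkl+/- libraries, on 43 UMIs in all, of which 19 came from WT replicate 1. The mean in MmTEC was 13.6 times that in PAmTEC, and 46.9 times without WT replicate 1, whose PAmTEC were 11 cells.

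*Fezf2* was 359.6, 758 and 678 CPM in WT and 536, 467 and 357 in Tbx1+/-Crkl+/- MmTEC, and 33.3, 25.5 and 29.4 and 148.996, 72.1 and 32.96 CPM in PAmTEC, 9.22 times lower on average. *Cd80* was 104.2, 107.4 and 85.6 CPM in WT and 119.1, 110.7 and 126.02 in Tbx1+/-Crkl+/- MmTEC, and it was read 4 times in PAmTEC, in 2 libraries. The ratio of the means was 22.3, and 78.7 without WT replicate 3, which held 3 of the 4 UMIs. For these 3 genes no PAmTEC value reached the lowest MmTEC value. Of the markers of other cells, the B cell sum was apart, at 26.1 to 84.2 CPM in MmTEC and 0 to 7.35 in PAmTEC. *Cd79a* and *Ms4a1* were at 0 in PAmTEC. The other ranges overlapped, with the macrophage sum at 10.4 to 292 and 0 to 95.6 CPM. The dendritic sum was 16.8 to 46.9 and 14.4 to 33.3 CPM, and *Ptprc* 0 to 57.3 and 0 to 72.1 CPM. The part of these markers in the result was not tested.

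*Cd86* had 0 UMIs in PAmTEC. *Hipk2* averaged 62.6 CPM in both, but was higher in MmTEC in 5 of 6 libraries, and without WT replicate 1 the means were 62.6 and 41.8 CPM. It was 62.5, 42.9 and 32.6 in WT and 74.4, 65.0 and 98.01 in Tbx1+/-Crkl+/- MmTEC, and 166, 25.5 and 22.1 and 59.6, 36.04 and 65.9 in PAmTEC. *Prdm1* was read 13 times in MmTEC and 5 times in PAmTEC, at 5.53 ± 6.64 and 19.5 ± 30.2 CPM, and without WT replicate 2 at 3.20 and 8.16 CPM.

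The label PAmTEC was checked against cornified keratinocyte genes, which mark mTEC after AIRE expression. These were read rarely and in part of the libraries. *Krt10* was found in 5.30% of PAmTEC and 5.21% of MmTEC, at 43.2, 51.0 and 36.8 CPM in PAmTEC of Tbx1+/-Crkl+/- replicate 2 and WT replicates 2 and 3 against 12.03, 25.8 and 9.51 in MmTEC of the same libraries, with no read in PAmTEC of the other 3. Of the remaining genes, *Krt1* was found in 2 PAmTEC (4 UMIs) and 12 MmTEC (32 UMIs), *Ivl* in 3 (3 UMIs) and 12 (58 UMIs), and *Lor* in 1 cell of each. *Spink5* had 28 UMIs in 10 MmTEC and 78 UMIs in 7 PAmTEC cells, 66 of them in 4 cells of WT replicate 2, and was also above MmTEC in Tbx1+/-Crkl+/- replicate 2 and WT replicate 3. MHC class II genes were lower, with *H2-Aa* at 1035 CPM in PAmTEC and 6577 in MmTEC. *Dclk1*, taken as a tuft cell gene, was 221 CPM in PAmTEC and 11.04 in MmTEC, and the fibroblast gene *Col1a1* 692 and 183 CPM. In bulk, 3 tuft cell genes summed to 569 to 731 CPM in gp38+CD26- cells at 4 weeks, with *Avil* at 0. Their sum was 43.4 to 228 CPM in mTEC at 4 weeks and reached 886 in mTEClo. Whether the *Dclk1* reads of PAmTEC came from tuft cells was not tested. The cells labelled PAmTEC are therefore named here by their label only.

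Of the 518 MmTEC, 431 had an *Aire* UMI and 286 a *Fezf2* UMI, and 253 (48.8%) had both, 178 *Aire* alone, 33 *Fezf2* alone and 54 neither. At 2000 UMIs per cell, 38.3% of 426 had both. In PAmTEC 6 cells had both, 4 *Aire* alone and 7 *Fezf2* alone, and in PcTEC 3 of 4826 had both. A UMI of *Aire*, of *Fezf2* and of *Cd80* or *Cd86* was found together in 95 MmTEC and in 0 PAmTEC.

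Thinned MmTEC with an *Aire* UMI (329 cells) were set against those without (97 cells) within each library. *Fezf2* was found in 48.6% ± 16.9 of the former and 36.7% ± 6.42 of the latter (SD, n = 6 libraries), higher in 5 of 6 libraries and not past the threshold (exact sign-flip permutation test, two-sided, p = 0.219, 0.703 after Benjamini-Hochberg adjustment over 5 genes; the smallest p that 6 libraries allow is 0.0313). *Cd80* was found in 19.0% ± 4.40 against 11.9% ± 11.04, higher in 4 of 6 libraries (exact permutation p = 0.313, adjusted 0.703). The *Cd80* difference was 8.33, 23.5 and 23.0 percentage points in Tbx1+/-Crkl+/- and -7.5, -9.03 and 4.01 in WT libraries. *Hipk2* was found in 13.7% against 11.05% (exact permutation p = 0.563). *Cd86* (2.13% against 1.33%) and *Prdm1* (0.245% against 4.75%) are given as values, since their shares differed in 2 and 3 of the 6 libraries and the exact permutation test could then not give a p below 0.500 and 0.250. In the plot of libraries by *Aire* detection, lines run in both directions for every gene.

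**Figure D5:**
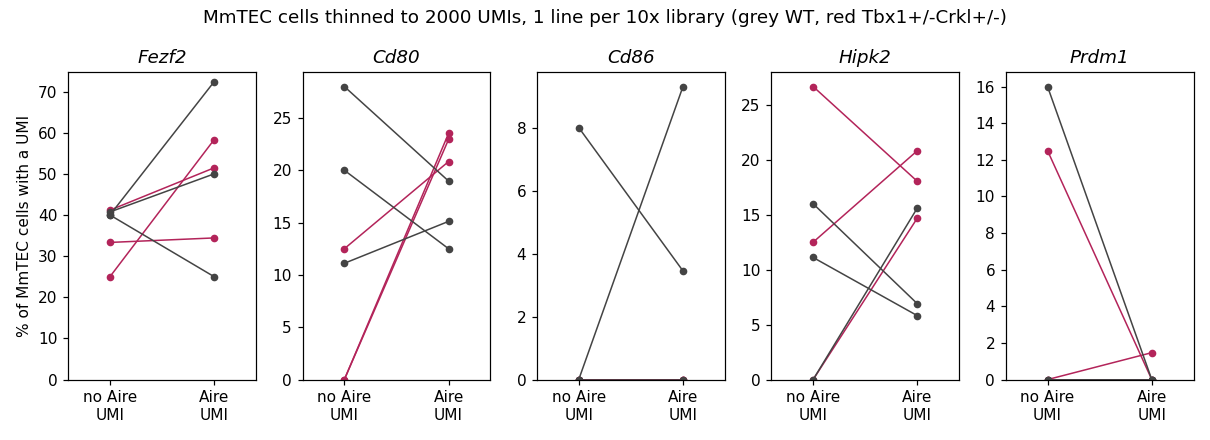
Percent of MmTEC with a UMI of each gene (vertical axis) among cells with and without an *Aire* UMI at 2000 UMIs per cell, 1 line per 10x library. *Fezf2* is higher with *Aire* in 5 of 6 libraries and *Cd80* in 4 of 6.

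Tbx1+/-Crkl+/- and WT libraries were compared on summed counts within each of the 18 subtypes with at least 20 cells in every library. In 23 tests of the 6 genes edgeR called 0, with 2 at an unadjusted p under 0.05, and DESeq2 called 0 of 85, with 4 at an unadjusted p under 0.05. The share of calls over all genes and subtypes was 0.0481%, and 0.148% in MmTEC. The 2 were *Aire* in PcTEC (log2 fold change 1.48 ± 0.48, edgeR adjusted p = 0.643), at 3.35, 13.4 and 10.01 CPM in Tbx1+/-Crkl+/- and 5.19, 2.94 and 2.73 in WT libraries, which overlapped, and *Hipk2* in MmTEC. In MmTEC the log2 fold changes were -0.01 ± 0.31 for *Aire*, -0.50 ± 0.33 for *Fezf2*, 0.21 ± 0.30 for *Cd80* and 0.82 ± 0.37 for *Hipk2*, with edgeR adjusted p of 0.993, 0.623, 0.836 and 0.486. *Cd86* in MmTEC had 0, 8 and 30 UMIs in WT and 0, 3 and 0 in Tbx1+/-Crkl+/- libraries and was below the filter.

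The genes most like each of the 6 over the 14 bulk populations were found by Pearson correlation of mean log2(CPM + 1), a description whose points share ages and libraries. They were *Gm13929*, *Kynu* and *Dleu7* for *Aire* (r = 0.999, 0.998 and 0.998), *Skint2*, *Cdx1* and *Krt15* for *Fezf2* (0.994 each), *Kcnh6*, *Myo1a* and *4930579C12Rik* for *Cd80* (0.991, 0.990 and 0.989) and *Ceacam18* and *Il23r* for *Cd86* (0.995 each). *Hipk2* was most like *Pax9*, *Eya1* and *Fam83h* (0.983, 0.982 and 0.979), of which *Pax9* and *Eya1* are transcription factor genes of the pharyngeal pouch epithelium. *Prdm1* had no close match, with *Hectd2os* at 0.802. Among the 6, *Aire* had r of 0.984 with *Cd80*, 0.981 with *Fezf2*, 0.968 with *Cd86*, 0.596 with *Hipk2* and 0.258 with *Prdm1*.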

How the data were processed

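Bulk values were counts of reads per Ensembl gene for 84 libraries, made and deposited by the authors (the submitters' processing notes name STAR 2.5.3a, HTSeq and the build mm10). Rows that name no gene held 7.81% to 29.4% of counts and stayed out of library sizes and tests. Single-cell values were UMI counts per cell after the authors' Cell Ranger 3.1.0 run, cell filters and doublet removal, with the authors' subtype labels. Cells were used as deposited, and the fewest genes per cell were 876 to 901 in the 6 libraries, below the stated minimum of 1000. CPM, folds and tests were computed here. Of 39179 bulk identifiers 37607 had a symbol.

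edgeR 4.0.16 (quasi-likelihood, TMM factors, filterByExpr) was fitted over the 36 epithelial libraries and separately over 47 nonepithelial libraries, with Benjamini-Hochberg adjustment over all genes and a threshold of 0.05. The SE beside edgeR's log2 fold changes is the absolute change divided by the square root of the F statistic. It is an approximation, and carries no meaning where a group had no read. Newborn genotypes were tested on counts summed per library and subtype, with at least 20 cells in each of 6 libraries. Contrasts of prefixes were fitted on the mTEChi and mTEClo libraries and were chosen after the data were seen, as was leaving out mTEC replicate 3. DESeq2 1.42.0, RLE factors, no filter, single prefixes, replicate blocks and leaving out libraries were alternatives. Scripts were tested on simulated data with known changes. For mTEChi against mTEClo, with only these groups fitted, 3.16% of genes changed by 1 on the log2 scale were recovered. Of those changed by 2, 18.6% were recovered, and 9.52% of calls were false. For genotype in MmTEC these shares were 13.0%, 85.9% and 4.49%. R 4.3.3, Python 3.11.15 and scipy 1.17.1 were used.

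The named genes were the 6 members, up to 2 genes called per direction in each gene list with the largest change, and the 3 genes most like each member, except an item that is not reported here; single-cell and marker genes were named to check a label. Members and lists were chosen with earlier results of these data known. Intervals and floors of 3 counts cover counting error only. Newborn cells and bulk libraries were normalized separately and tested only within each table.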

Additional observations from a re-analysis of the deposited data

Results flagged for a closer look

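In 3 of 41 sets of 6 libraries with a median of at least 1 CPM, a single library lay far from the other 5, where chance marks about 1 in 20 such groups. *Cd80* in mTEC at P0 was 63.9 CPM in replicate 1 against 46.1 to 52.1 in the others. *Hipk2* in Ly51+gp38- cells at 4 weeks was 24.1 CPM in replicate 3, beside a median of 3.32 CPM. *Prdm1* in gp38+CD26- cells at P0 was 9.77 CPM in replicate 3, beside a median of 1.497 CPM, and the call of *Prdm1* with age in these cells rested on 212 reads over the group.

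The difference of *Cd86* between mTEChi and mTEClo was unequal between the libraries of the DFCK and TXCK prefixes, a contrast chosen after the data were seen. The fitted value was 10.14 on the log2 scale (edgeR adjusted p = 0.00832). That value is no bound because no DFCK library of mTEClo held a *Cd86* read. The change of *Fezf2* with age was unequal between mTEC and cTEC (-7.67 on the log2 scale, edgeR adjusted p = 8.63e-07), through levels in cTEC of at most 9.32 CPM.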

How the results depend on the processing

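The number of genes called moved by over 1.5 times in these settings. Between mTEChi and mTEClo it was 4471, and 2022 with DFCK libraries only, 1759 with TXCK only and 2537 with only these groups fitted. For age in mTEC it was 1235, and 1994 by DESeq2, 135 with DFCK and 555 with TXCK. For age in cTEC it was 2656, and 474 with DFCK and 1378 with TXCK. For mTEC against cTEC it was 2747 (DFCK) and 4386 (TXCK) at P0, and 2749 (DFCK), 4449 (TXCK) and 3564 (only these groups) at 4 weeks. For the difference in age change the share of genes called was 4.79%, and 8.02% by DESeq2, 0.607% with DFCK and 2.05% with TXCK. Settings with 1 prefix had 3 libraries a group. RLE factors moved the median log2 fold change of all genes from 0.24 to 0.35 between mTEC and cTEC at 4 weeks.

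The titles of bulk libraries give a running number and no replicate number, and libraries at the same place of their group's run were taken as same-numbered. Whether same-numbered libraries shared an origin was not given. Their deviations correlated at -0.0579 to 0.127. Between mTEChi and mTEClo every library correlated best with its own number (6 of 6), against 3 of 6 between mTEC and cTEC at each age. The main fits did not use the number. With the replicate number as a block, 1950 genes were called between mTEChi and mTEClo and 2905 between mTEC and cTEC at 4 weeks, where *Cd80* and *Cd86* did not pass (edgeR adjusted p = 0.0857 and 0.109). With the replicate block in the newborn subtypes, 0 of 28 tests of the 6 genes were called by edgeR between genotypes, with 4 at an unadjusted p under 0.05.

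Directions changed for values that had not passed. For age in mTEC, *Fezf2* was 0.0406 by DESeq2, 0.0408 with RLE factors and 0.27 with DFCK (leaving out 1 library, -0.21 to 0.19), *Cd80* was 0.23 with TXCK (-0.46 to 0.13) and *Prdm1* 0.67 with DFCK. For age in cTEC, *Cd80* was -5.90 with TXCK (-0.94 to 1.08) and *Prdm1* -2.67 with TXCK, and *Aire* ranged from -5.36 without 4-week replicate 5 to 5.54 without P0 replicate 1, the only libraries with *Aire* reads (edgeR adjusted p = 0.0347 and 0.0368). For the difference in age change, *Cd80* was 6.13 and *Prdm1* 1.39 with TXCK, and *Hipk2* 0.29 with DFCK. The genotype difference of *Aire* in MmTEC ranged from -0.21 to 0.21 on leaving out 1 library, and the *Cd86* share with minus without *Aire* from -0.91 to 1.86 percentage points.

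Calls changed as follows. Between mTEChi and mTEClo, *Aire* did not pass by DESeq2 (adjusted p = 0.0510), and *Cd86* passed by DESeq2 (0.0494), with the prefix as a term (0.0230), with either prefix alone and without mTEClo replicate 5 (0.0210). With TXCK only, *Aire* and *Fezf2* did not pass (0.228 and 0.135). *Prdm1* passed between mTEC and cTEC at P0 by DESeq2 (0.0209), with TXCK (0.0142), with only these groups (0.0194) and with the block (0.00840), at 4 weeks with TXCK (0.00813), and with age in CD31+ cells by DESeq2 (0.0247). With DFCK only, the call of *Cd86* with age in cTEC was lost (0.340), as were those of *Cd80* and *Cd86* between mTEC and cTEC at 4 weeks (0.0647 and 0.0939). The difference in age change of *Cd86* passed by DESeq2 (0.0380) and with TXCK (0.0204). The causes were not tested. Of the members' values under alternatives, 548 kept direction and side of the threshold, 25 changed direction, 15 no longer passed and 14 newly passed. These counts include *Cd80* between mTEChi and mTEClo, with 7 of the 15. That contrast is only described, and the 7 are not read as lost calls. Reads of *Prdm1* and of *Cd86* outside mTEC were too few to show moderate differences.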
